A study of Rattus norvegicus with 6 samples.

Results

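A custom vertebrate microRNA (miRNA) array carried probes for mouse miRNAs that had no rat counterpart in its annotation, and the signal of rat kidney RNA on these probes was examined. The members were the standard probes named for a mouse miRNA (mmu-) with no rat name (rno-) in the rat column of the array files. Of 803 mouse-named probes, 106 had a rat name and 697 did not. From the 697, 8 were left out because they were named for miRNAs outside the set (miR-34, miR-449, miR-155, miR-320, miR-484, miR-877, miR-1224, miR-720 and miR-1274) and 60 because G made up 45% or more of the target, which left 629 members of the 5560 probes on the array. G reached 44.4% of the target in the member with the most G, and started at 45.5% in the targets left out.

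The kidneys were of 6 male rats of strain Fisher 344 carrying the Big Blue transgene, and each rat had 1 array. The labels give an age of 6 weeks for both groups. This cannot be the age at death of the treated rats, which were dosed over 12 weeks. The untreated controls were replicates 13 to 15. The AA group, replicates 19 to 21, was given aristolochic acid, a compound of Aristolochia plants that damages kidney DNA and causes tumours, as the sodium salt by gavage. The dose was 10.0 mg/kg, given on 5 days of each week over 12 weeks, and the rats were killed 1 day after the final dose. The transgene, shared by both groups, is a mutation reporter. The replicates were separate animals, and the RNA was of whole kidney tissue, in which fewer cells of a type and less RNA per cell cannot be told apart.

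A miRNA is cut from a hairpin precursor, and 1 or both arms can be kept as a mature strand of about the length of the probe targets here. The less used arm was marked with a star in the names of that time. Bases 2 to 8 of the mature strand, the seed, pair with target mRNAs. In the mouse miR-297, miR-466, miR-467 and miR-669 belong to a large rodent cluster in an intron of Sfmbt2, a Polycomb-group gene, which is known for its expression in placenta and embryonic stem cells. Many of its mature strands are made of CA or UG repeats.

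The targets below are examples of the repeat sequences found among the members that were read, with their rat-named relatives. Each is written 5′ to 3′ as the array files give it, and capitals mark a CA repeat (a run holding ACACAC or CACACA) or a UG repeat (a run holding UGUGUG or GUGUGU).
mmu-miR-467b*: auauacauACACACACcaacac
mmu-miR-467d*: auauacauACACACACcuacac
mmu-miR-466f-3p: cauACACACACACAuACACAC
mmu-miR-466i-3p: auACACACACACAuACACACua
mmu-miR-466h-3p: uacgcacgCACACACACAC
mmu-miR-669a-3-3p: acauaacauACACACACAuguau
mmu-miR-1187: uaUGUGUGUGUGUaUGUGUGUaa
mmu-miR-297a: auguaUGUGUGcaugugcaugu
rno-miR-466b-1*: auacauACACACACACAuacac
rno-miR-466b-2*: auauacauACACACAuacaca
rno-miR-466b: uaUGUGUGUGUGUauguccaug
The rat targets are shown because most of these mouse members had 1 of them as the rat-named probe with the longest shared run, the exception being mmu-miR-297a, whose closest was rno-miR-297. The target of mmu-miR-467b* shared its first 15 bases, and its seed, with rno-miR-466b-2*.

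The next targets had no such repeat and were among the members read in kidney. Capitals mark the bases shared in 1 run with the rat mature miRNA on the line after, which was taken from RefSeq (GRCr8).
mmu-miR-3962: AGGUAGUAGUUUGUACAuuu
rno-let-7g-5p: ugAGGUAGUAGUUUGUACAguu
mmu-miR-3970: gagguuGUAGUUUGUGCUuu
rno-let-7i-5p: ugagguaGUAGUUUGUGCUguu
mmu-miR-351: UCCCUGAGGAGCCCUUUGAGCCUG
rno-miR-351-5p: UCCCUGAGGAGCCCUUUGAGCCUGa
mmu-miR-290-5p: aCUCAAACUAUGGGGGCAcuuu
rno-miR-290: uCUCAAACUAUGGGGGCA
mmu-miR-1306-3p: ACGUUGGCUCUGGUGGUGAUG
rno-miR-1306-3p: gACGUUGGCUCUGGUGGUGAUG

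Values are intensities normalized by the authors, on a linear scale, unless the log2 scale is named. A miRNA was called read on an array where its value was 32 or above, the threshold in the methods of the study. On 1 array, AA replicate 20, the mean scanner signal above the empty spots was 149 against 263 to 484 on the other arrays, and 66.8% of the tested probes were above background against 84.9% to 97.9%. The control spots for 5S RNA had a mean of 366 there, against 3109 to 6846 on the others. Not all control spots were low on that array. The control PUC2PM had 25155 there against 11556 to 17316 on the others, while PUC2PM-20B had 1471 against 16066 to 26663. On that array the probe for miR-122, a liver miRNA, had a normalized intensity of 15191, against 8.17 to 48.5 on the other 5. Of 6 kidney epithelial markers, 5 were read on all 6 arrays and miR-204 on none. Of the markers of other tissues, 1 of 6 (miR-206) was read on all 6 arrays and 4 on none, and of the leukocyte markers 1 of 4 (miR-150) was read on all 6 and 3 on none. Of the 2 erythroid markers, miR-451 was read on 4 arrays and miR-144 on none. The summed level of the kidney markers was 11420 to 13537 in the controls and 7356 to 14662 in the AA group. For the other-tissue markers it was 230 to 577 against 98.3 to 15799, for the leukocyte markers 323.3 to 525 against 516 to 576, and for the erythroid markers 51.3 to 66.3 against 8.36 to 75.7. The part of these differences in the results was not tested. For many of the log2 differences the value without AA replicate 20 is given as well.

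Of the 629 mouse members, 126 (20.0%) were read on 1 array or more and 58 (9.22%) on all 6. The remaining 503 were read on none. Rat-named probes were read more widely, 180 of them (26.5%) reaching the threshold somewhere and 101 (14.9%) everywhere. Among the other standard probes 787 of 4152 (19.0%) were read on 1 array or more and 388 (9.34%) on every array. Unlike the members, these were not limited by G content. Among probes with neither a CA nor a UG repeat, a split made after the values were seen, 12.8% of members were read on 1 array or more. For rat-named probes without a repeat it was 25.9%, and for other standard probes 18.4%. On every array these shares were 3.80%, 14.1% and 8.94%. These shares are descriptions, since many probes share target sequence and are not independent. The highest value of a member that was never read was 31.5 (mmu-miR-3100-3p), and the lowest maximum of a member that was read was 32.4 (mmu-miR-344b*). Maxima from 32 to 64 were found for 30 members, and from 16 to 32 for 41.

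The number of members read was 81, 84 and 95 for the controls, in the order of replicates 13, 14 and 15, and 72, 92 and 87 for AA, in the order of replicates 19, 20 and 21. The same order is kept below wherever 3 values of a group are listed. Control replicate 15 alone read 16 members, whose targets had a median C content of 38.6% against 22.7% over all members. AA replicate 20 alone read 9. A further 6 members were read on every array but AA replicate 20, namely miR-351, miR-3102, miR-5099, miR-5100, miR-5109 and miR-10b*. No member was read on all 3 arrays of 1 group and on none of the other. Without AA replicate 20, 117 members were read on at least 1 array and 64 on all the remaining arrays.

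Members with a repeat sequence were read more often than the rest, a split that was chosen after the values were seen. Of 37 members with a CA repeat 33 (89.2%) were read on 1 array or more and 25 (67.6%) on every array. Of 39 members with a UG repeat 22 (56.4%) were read on 1 array or more and 12 (30.8%) on every array. Among the 553 members with neither repeat 71 (12.8%) were read on 1 array or more and 21 (3.80%) on every array. CA repeats were held by 1.40% of all 5560 targets and by 5.88% of the members, and UG repeats by 2.28% and 6.20%, searched in the miRNA strand only. The members with CA repeats had a median of 4.35% G and 31.8% C, against 25.0% G and 22.7% C over all members. Because these targets share runs of bases, their probes could not be taken as separate measurements of separate miRNAs.

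Longer CA runs were read more often. All 18 members with a CA run of 8 bases or more (9 with 8 to 9 bases and 9 with 10 or more) were read on all 6 arrays, against 7 of 19 with a run of 6 to 7 bases. For UG runs, 4 of 18 members with 6 to 7 bases, 6 of 18 with 8 to 9 and 2 of 3 with 10 or more were read on all 6. The CA repeat members that were never read were mmu-miR-3100-3p, mmu-miR-669m-3p, mmu-miR-466o-3p and mmu-miR-672*. Rat-named probes with a CA repeat were read on at least 1 array in 6 of 12 cases, and the other standard probes with one in 14 of 29.

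The Sfmbt2 cluster supplied most of the repeat members. Of its 71 members 45 (63.4%) were read on 1 array or more and 31 on every array. All 45 held a CA or UG repeat, and they were 75.0% of the 60 members of the cluster with a repeat. None of the other 11 members of the cluster, which had no repeat, was read. Of these mmu-miR-467b, the opposite arm to mmu-miR-467b*, ranged from 0.393 to 2.12 over the 6 arrays. The cluster was split again by repeat, with 30 of 32 CA members (93.8%) and 15 of 28 UG members (53.6%) read on at least 1 array. Outside the cluster 16 members had a repeat, and 10 of them were read on at least 1 array, 6 on all 6. RefSeq listed 5 rat genes of these families (miR-297 and miR-466), of which 4, all miR-466, lay within rat Sfmbt2.

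The highest member by median was mmu-miR-467b*, with 14171, 16955 and 12629 in the controls and 10169, 36068 and 13330 in the AA group. Its AA values lay below, above and within the control range, and the groups overlapped. On the log2 scale after quantile normalization its mean was 13.74 ± 0.20 (SD, n = 3) in controls and 13.94 ± 0.94 in AA, a difference of 0.20 (SE 0.47, limma adjusted p = 0.927), which was smaller than the spread between animals. The next, mmu-miR-467d*, had 9162, 12306 and 6556 in controls and 7573, 32548 and 9908 in AA. Again only AA replicate 20 lay above the controls, and the log2 difference was 0.46 (SE 0.54, limma adjusted p = 0.885). Without that array the difference was −0.25 for mmu-miR-467b* and −0.12 for mmu-miR-467d*.

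After these came mmu-miR-466f-3p, with 8528, 8927 and 9037 in controls and 8203, 24474 and 11688 in AA. AA replicates 20 and 21 were above all controls and replicate 19 was below them, and the log2 difference of 0.50 (SE 0.38, limma adjusted p = 0.885) did not pass the test. For mmu-miR-466i-3p the values were 5612, 5119 and 6316 in controls and 5566, 17998 and 9344 in AA, with a log2 difference of 0.65 (SE 0.39, limma adjusted p = 0.885). Replicate 19 was inside the control range and the other AA arrays were above it. Without AA replicate 20 the differences were 0.14 for mmu-miR-466f-3p and 0.29 for mmu-miR-466i-3p. Of the 12 members with the highest medians 11 had a CA repeat, the others being mmu-miR-466h-3p, mmu-miR-467f, mmu-miR-669e*, mmu-miR-669p*, mmu-miR-466g, mmu-miR-669a-3p and mmu-miR-669f-3p, with log2 differences from 0.41 to 0.57, and from −0.09 to 0.19 without AA replicate 20. None of the 12 passed the test, with limma adjusted p from 0.885 to 0.927. The largest log2 difference of any tested member, 1.10 (SE 0.60, limma adjusted p = 0.885), was that of mmu-miR-669a-3-3p, named after its values were seen. Its values were 1269, 1455 and 889 in controls and 1195, 9324 and 1877 in AA. AA replicates 20 and 21 were above the controls and replicate 19 was inside their range. The difference was 0.42 without AA replicate 20 and 1.68 without AA replicate 19.

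All 25 CA repeat members read on every array had their highest normalized intensity on AA replicate 20. The ratio of that array to the next highest was 1.79 to 9.37 with a median of 2.76, and the medians over the 25 members were 3585, 3760 and 4059 in controls and 3341, 15730 and 6307 in AA. In the scanner signal above the empty spots, before normalization, only 4 of the 25 were highest on AA replicate 20, and the medians were 6664, 4063 and 3638 in controls and 6388, 5291 and 6008 in AA. The scanner median of these members on AA replicate 20 thus lay within the range of the other arrays, on an array whose mean signal was the lowest of the 6. Of the 12 UG repeat members read on every array 6 were highest on AA replicate 20, and of the 21 without a repeat 7 were. Of the 14 probes with a CA repeat outside the members that were read on every array, 12 were highest on AA replicate 20. Among the rat-named probes read on every array 33 of 101 were.

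The rat-named relatives of these members behaved alike. rno-miR-466b-2*, an arm of the rat Sfmbt2-intron hairpin, had 1984, 2502 and 1996 in controls and 1503, 11226 and 2040 in AA. rno-miR-466b-1* had 7085, 8102 and 7365 in controls and 5760, 19354 and 8942 in AA. For both, AA replicate 20 was highest and replicate 19 lowest. The UG arm rno-miR-466b was read on all 6 arrays, with 38.7 to 126, while rno-miR-466c, rno-miR-466d and rno-miR-297 were read on none.

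Over all 37 CA repeat members, with no filter, the median log2 difference between AA and control was 0.51, and the mean was higher in AA for 37 of 37, against a median of 0.01 and 2988 of 5560 (53.7%) over all probes. Without AA replicate 20 the median was 0.09, with 28 of 37 higher. With median scaling in place of quantile normalization it was 0.28, with 27 of 37 higher, and with no normalization 0.22, with 25 of 37. It was larger with cyclic loess (0.84, 36 of 37 higher), with the values normalized by the authors (0.65, 37 of 37) and without AA replicate 19 (0.98, 37 of 37). For the 39 UG repeat members the median was 0.13, with 30 higher, and it turned to −0.06 with median scaling and −0.13 with no normalization. For the 553 members without a repeat it was 0.01, with 54.1% of them higher. For the 41 probes with a CA repeat outside the members it was 0.11, with 34 higher. Without AA replicate 20 it was 0.009 for these 41, with 22 higher. These values were given no test, because the members share sequence and the split was made after the values were seen.

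Among UG repeat members mmu-miR-1187, which is outside the Sfmbt2 families, had the highest median. Its values were 3868, 3220 and 2813 in controls and 1239, 3785 and 5440 in AA. AA replicate 19 was below and replicate 21 above all controls, and the log2 difference was −0.30 (SE 0.51, limma adjusted p = 0.907). The difference was 0.30 without AA replicate 19. mmu-miR-297a, from the Sfmbt2 cluster, ranged from 70.2 to 137 in controls, was 30.9, 150 and 243 in AA, and was read on 5 arrays. The rat-named probe rno-miR-297, which shares 16 bases with it, was read on none. Over the 12 UG repeat members read on all 6 arrays, 8 were lowest on AA replicate 19.

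Of the 21 members without a repeat that were read on all 6 arrays, mmu-miR-5112 was the highest by median, with 3250, 5634 and 1670 in controls and 7126, 3258 and 5987 in AA. AA replicates 19 and 21 were above all controls and replicate 20 was inside their range. Its log2 means were 11.70 ± 0.76 in controls and 12.44 ± 0.71 in AA (SD, n = 3), a difference of 0.74 (SE 0.50, limma adjusted p = 0.885), and no rat mature miRNA in RefSeq shared more than 8 bases in a row with it. mmu-miR-690 had 2986, 3497 and 4651 in controls and 3597, 2499 and 5881 in AA. Its AA values fell on both sides of the controls, with a log2 difference of 0.01 (SE 0.40). The difference ranged from −0.30 to 0.32 with 1 animal left out. mmu-miR-3963 had 852, 872 and 821 in controls and 1048, 87.6 and 871.2 in AA, so that only AA replicate 20 was far from the rest. Its log2 difference was −0.83, or 0.29 without that array.

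A pair of members resembled let-7, a family that holds back growth genes and is abundant in adult tissue. They were picked after their values were seen. mmu-miR-3962 shared 17 bases in a row with rno-let-7g-5p and had 2821, 2966 and 1475 in controls and 2725, 339 and 817 in AA. AA replicates 20 and 21 were below all controls and replicate 19 was inside their range. The log2 means were 11.37 ± 0.45 in controls and 10.07 ± 1.68 in AA (SD, n = 3), and the difference of −1.29 (SE 0.78, limma adjusted p = 0.885) was the lowest of any tested member. It was −0.45 without AA replicate 20 and −2.16 without AA replicate 19. mmu-miR-3970 shared 12 bases with rno-let-7i-5p and had 449.5, 616 and 160 in controls and 849, 90.4 and 139 in AA. The groups overlapped, and the log2 difference was −0.42 (SE 0.79, limma adjusted p = 0.918), or 0.20 without AA replicate 20. The 7 rat-named let-7 probes (let-7a to f and i) were read on all 6 arrays, with let-7i at 3543 to 4948 and let-7a at 25736 to 35298.

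By relation to rat sequence, 109 members were nested with a rat target or a rat mature miRNA in RefSeq (one wholly inside the other), 66 shared a run of 16 bases or more, 90 shared the seed, and 364 had none of these. They were read on at least 1 array in 17 (15.6%), 15 (22.7%), 17 (18.9%) and 77 (21.2%) cases. The share was lowest among the nested members. The classes were not split by repeat, though members with a CA or UG repeat were read far more often (72.4%) than those without (12.8%). The order of the shares is therefore not read as a result about closeness to rat sequence. A rat-named probe was itself nested with the target of 92 members or shared a run of 16 bases or more with that of 62, and the rest of the nested and long-run members matched RefSeq sequence only. Setting these members beside that probe gave 19 pairs with both read, 5 with the member only, 9 with the rat probe only and 121 with neither.

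mmu-miR-351, of the X-linked cluster of miR-322, miR-503 and miR-351, was a case where the pair differed. Its whole target lay within the rat sequence printed above. It had 67.0, 60.6 and 148 in controls and 205.9, 0.00991 and 75.3 in AA, and was read on every array but AA replicate 20, while rno-miR-351 was read on none and had at most 25.8. Its log2 difference was −0.15 (SE 0.46, limma adjusted p = 0.936), or 0.37 without AA replicate 20. mmu-miR-322*, from the same cluster, had 46.5, 48.8 and 46.4 in controls and 90.1, 42.4 and 49.1 in AA. AA replicate 19 was the farthest from the rest and replicate 20 was below all controls, the log2 difference was 0.20 (SE 0.26, limma adjusted p = 0.885), and rno-miR-322* was read on 2 arrays.

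The pair for miR-455, which lies in the collagen gene Col27a1, was read on both sides. mmu-miR-455 had 384, 356 and 493.8 in controls and 332, 132.9 and 317 in AA. All 3 AA values were below the lowest control as normalized by the authors, but the groups overlapped on the log2 scale after quantile normalization, with 8.97 ± 0.30 and 8.40 ± 0.62 (SD, n = 3) and a difference of −0.57 (SE 0.37, limma adjusted p = 0.885), or −0.23 without AA replicate 20. For rno-miR-455* the log2 difference was −0.79. mmu-miR-133b*, the star strand of a muscle miRNA, had 115, 78.1 and 235 in controls and 42.4, 2193 and 193.6 in AA. The AA mean was carried by replicate 20, with a log2 difference of 0.86 (SE 0.86, limma adjusted p = 0.885), which was −0.17 without that array. The rat-named probe for miR-133b* had 50.4, 2221 and 224 in AA, in the same order of arrays.

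mmu-miR-28c, nested with rno-miR-28-5p, ranged from 79.1 to 94.5 in controls and from 60.9 to 156 in AA, with a log2 difference of 0.22 (SE 0.32), or 0.60 without AA replicate 20. mmu-miR-18a*, of the proliferation cluster miR-17-92, mmu-miR-32* and mmu-miR-3064-3p were each read on 3 arrays. Their highest values, 94.5, 183 and 107, were all on AA replicate 20, and their log2 differences were 0.19, 0.70 and 0.49, none of them past the test. Without that array they were −0.09, 0.26 and 0.16.

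Rat homologs were sought by the study for miR-1839, miR-3068, miR-1843, miR-1306 and miR-509, which were chosen by sequencing that included these animals, so that their signal here is not independent evidence. Of the 12 members with these names 3 were read on at least 1 array and 1 on all 6. The 1 on all 6, mmu-miR-1839-5p, had 85.4, 92.5 and 82.0 in controls and 63.97, 129 and 37.8 in AA. The AA values lay on both sides of the controls, with log2 means of 7.33 ± 0.10 and 7.32 ± 0.54 (SD, n = 3) and a difference of −0.02 (SE 0.33, limma adjusted p = 0.983). Its target was identical to the rat mature strand, which RefSeq now lists under the gene name Scarna15.

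mmu-miR-1306-3p, from the Dgcr8 locus that codes for a part of the miRNA processing machinery, had 94.9, 89.5 and 53.4 in controls and 24.3, 42.2 and 130 in AA, and was read on 5 arrays. The AA values were below the controls on 2 arrays and above them on the third, with a log2 difference of −0.21 (SE 0.39, limma adjusted p = 0.918). mmu-miR-3068 was read on AA replicate 19 only, at 44.8, against 7.27 to 27.6 on the other arrays. The members never read were mmu-miR-1839-3p (at most 28.0), mmu-miR-3068* (at most 30.01), mmu-miR-1306-5p (at most 11.0), and both arms of miR-1843, miR-1843b and miR-509. Over the whole array 8 members were identical to a rat mature miRNA of RefSeq, and 2 of them were read, mmu-miR-1839-5p on 6 arrays and mmu-miR-3102-3p.2 on 1.

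Members of other known clusters were mostly below the threshold, as were most members of the set. Of all 629 members 503 were never read, and of the 553 without a repeat 482. None of 32 members of the X-linked testis cluster was read, and the highest of its values was 27.3, for mmu-miR-878-3p. mmu-miR-471-3p and mmu-miR-470, next by median, stayed below 7.14. Of 42 members of the imprinted Dlk1-Dio3 cluster, which is most active in embryo and brain, 4 were read on at least 1 array and 2 on all 6, namely mmu-miR-341* and mmu-miR-485*. mmu-miR-341* had 237, 260 and 683 in controls and 129, 6719 and 447 in AA. Only AA replicate 20 was above the controls, and the log2 difference of 0.83 (SE 0.96, limma adjusted p = 0.885) was −0.32 without that array. mmu-miR-485* had 35.9, 43.2 and 74.4 in controls and 32.9, 157 and 33.3 in AA, and mmu-miR-665* had 14.5, 28.0 and 118 against 18.6, 8.61 and 75.3. Star strands were read in 36 of 196 cases (18.4%), 16 of 20 with a repeat and 20 of 176 without (11.4%). Over all members the share read was 20.0%, and over those without a repeat 12.8%.

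AA was compared with control over the 1132 probes read on at least 1 array, 126 of them members. None of the 126 members passed the limma test at an adjusted p under 0.05, against 0.177% of all tested probes. At an unadjusted p under 0.05, 1 member (0.794%) was called, against 4.95% of all tested probes. The test named in the study's methods, run on the same values, called no member after adjustment, against 2 of all 1132 tested probes. Limma with array quality weights called 1 member after adjustment, against 44 of the 1132. The groups did not overlap on the log2 scale for 5 members (3.97%), 3 with AA above and 2 with AA below, against 9.98% of all tested probes (4.42% with AA above and 5.57% with AA below). The standard error of a member's log2 difference was 0.24 to 0.96 with a median of 0.41, and with 3 against 3 the smallest p of an exact permutation test is 0.1.

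The 1 member called without adjustment was mmu-miR-290-5p, of a cluster known from mouse embryonic stem cells. It had 371, 252 and 113 in controls and 174, 11.6 and 19.5 in AA. AA replicates 20 and 21 were below all controls, and replicate 19 lay between control replicates 15 and 14. The log2 means were 8.17 ± 0.73 in controls and 6.90 ± 0.83 in AA (SD, n = 3). The difference of −1.27 (SE 0.53) had a limma p of 0.0454 and an adjusted p of 0.885. With array quality weights, under which 3.89% of all tested probes were called, it was −1.68 (limma adjusted p = 0.0462), and over the other alternatives the adjusted p was 0.308 to 0.994 and the log2 difference −2.43 to −0.87. The rat-named probe rno-miR-290, which shares 17 bases with it, had 439, 319 and 146 in controls and 203, 31.6 and 36.2 in AA, and a log2 difference of −1.40.

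The 5 members whose groups did not overlap were near the threshold of 32 and were named after their values were seen. Each reached that threshold only in the group where it was higher, and so entered the test through that group alone. Their separation is therefore not independent of the filter and is given as a description. mmu-miR-503*, the star strand of a cell-cycle miRNA in the miR-322 cluster, had 15.9, 38.2 and 74.5 in controls and 6.41, 2.78 and 9.03 in AA. It was lower on every AA array, with a log2 difference of −0.53 (SE 0.26, limma adjusted p = 0.885). mmu-miR-297a* had 14.6, 20.8 and 23.6 in controls and 25.8, 93.7 and 46.8 in AA. It was higher on every AA array, with a log2 difference of 0.65 (SE 0.34, limma adjusted p = 0.885), or 0.39 without AA replicate 20. For the other 3 the log2 difference was −0.40 (mmu-miR-344g-5p), 0.36 (mmu-miR-466c-5p) and 0.22 (mmu-miR-29b-2*), each with an adjusted p of 0.885 by limma.

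With no filter on low values, 41 of the 629 members had an unadjusted limma p under 0.05 (6.52%, 24 of them higher in AA), against 8.83% of all probes, and none passed the adjusted threshold, against 0.036% of all probes. The median log2 difference over the 629 members was 0.02, against 0.01 over all probes. Without AA replicate 19, 23 of the 124 members then tested had an unadjusted limma p under 0.05, 20 of them higher in AA. None passed after adjustment, and neither did any of the 1075 probes then tested. The unadjusted share over all those probes was not taken, so the count is not read as a result about the members.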

How the data were processed

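Kidney RNA of 3 control and 3 AA rats was measured on 1 array each, in 1 colour (Cy3). Per the study's methods, RNA was tailed, tagged and hybridised, and the slides were scanned. The authors deposited scanner median pixel intensity, with neither background correction nor normalization, and a table of normalized intensity (background subtracted, LOWESS), which was used for reading at a threshold of 32. Each standard probe had 2 spots. The genome build is not given in the sources used here.

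Scanner intensity was corrected with normexp (offset 50), log2 transformed, quantile-normalized and averaged over spots. Probes at 32 or above on at least 1 array (1132) were tested with limma 3.58.1 in R 4.3.3, with Benjamini-Hochberg adjustment over all of them and a threshold of 0.05. The offset understates changes of dim probes. Candidate_84, outside the normalized table, was filtered on scanner signal above the empty-spot median. Alternatives were other background corrections, normalizations, filters and tests, array quality weights, and leaving out each animal. A probe was above background where its signal passed the empty-spot median plus 3 robust SDs. In simulated data for this comparison on 1132 probes, 71.0% of 200 probes changed by 2 on the log2 scale were recovered and 7.79% of calls were false. The simulation gave every probe the same spread and every array the same signal. Its change was larger than that of any tested member (−1.29 to 1.10), and recovery at smaller changes was not examined.

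Targets were compared with rat-named probes and 724 rat mature miRNAs from RefSeq (GRCr8). Named members were the 12 highest by median among those read on all 6 arrays, any called, any with an unadjusted p under 0.05 and separate groups, any read throughout 1 group and never in the other, the study's homologs, the 10 highest nested with a rat miRNA, and the 3 highest of each list. Others fell outside these rules and were chosen after their values were seen, also where this is not said. Among these are mmu-miR-1187, mmu-miR-297a, mmu-miR-690, mmu-miR-3963 and mmu-miR-290-5p. The members and lists were chosen with earlier results of these data known. Tools other than limma were Python 3.11.15 and pandas 2.3.3.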

Additional observations from a re-analysis of the deposited data

How the results depend on the processing

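The number of members read on at least 1 array was 126, and 161 from scanner signal above the empty spots, 96 at a threshold of 64, 167 at 16 and 85 when 3 arrays were asked for. Leaving out 1 animal gave 110 to 126. For all arrays it was 58, then 51, 47 and 79, and 58 to 64 with 1 animal left out. The count of members called was 0 in every setting but array quality weights, which called 1 (mmu-miR-290-5p), and it was 0 whichever animal was left out. Array quality weights called 44 of all tested probes, against 2.

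In 601 comparisons of 34 named members with an alternative setting the sign turned 34 times, in 15 members, and the cause was not tested. The count did not cover some other members described above, and signs turned among these too. With 1 animal left out the range was −0.72 to 0.30 for mmu-miR-1187 and −0.18 to 0.60 for mmu-miR-297a. It was −0.30 to 0.32 for mmu-miR-690 and −1.33 to 0.29 for mmu-miR-3963. With cyclic loess the log2 difference was −0.058 for mmu-miR-18a*, 0.21 for mmu-miR-351 and −0.076 for mmu-miR-485*. With median scaling it was −0.21 for mmu-miR-18a*, −0.020 for mmu-miR-3064-3p, 0.0077 for mmu-miR-351, −0.25 for mmu-miR-485* and −0.062 for the median of the UG repeat members. With no normalization it was −0.28 for mmu-miR-18a*, −0.088 for mmu-miR-3064-3p, −0.012 for mmu-miR-322*, −0.32 for mmu-miR-485*, −0.023 for mmu-miR-5112 and −0.13 for the UG repeat members. With array quality weights it was 0.12 for mmu-miR-1306-3p, 0.18 for mmu-miR-351, −0.17 for mmu-miR-467b*, −0.11 for mmu-miR-467d*, −0.024 for mmu-miR-485*, 0.43 for mmu-miR-665* and −0.081 for mmu-miR-669e*. With 1 animal left out the range was −0.17 to 1.60 for mmu-miR-133b*, −0.36 to 0.23 for mmu-miR-1839-5p, −0.091 to 0.43 for mmu-miR-18a*, −0.32 to 1.74 for mmu-miR-341*, −0.52 to 0.37 for mmu-miR-351, −1.20 to 0.20 for mmu-miR-3970, −0.25 to 0.65 for mmu-miR-467b*, −0.12 to 0.95 for mmu-miR-467d*, −0.20 to 0.56 for mmu-miR-485*, −0.55 to 0.14 for mmu-miR-665* and −0.088 to 0.80 for mmu-miR-669e*.

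No paired analysis was possible because the groups share no replicate numbers. A slide or scan block was not run, as no label or file gives one. The alternatives on the repeat members were chosen after seeing the data. The precision is limited by 3 arrays a group and by signal over background, which was lowest on AA replicate 20.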
